A study of Mus musculus with 28 samples.

Results

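The cytosolic ribosomal protein genes were taken from the table by name: gene names made of Rpl or Rps, a number and at most 1 of the letters a, x or l, together with Rplp0, Rplp1, Rplp2 and Rpsa. The rule found 80 of the 45513 gene rows, 48 for proteins of the large subunit and 32 for proteins of the small subunit. No measured value entered the choice. Of the 80 genes, 79 passed the filter on low counts, 47 large and 32 small. The remaining gene, Rpl39l, the paralog of Rpl39 known from the testis, was named but not tested. It had a mean of 1.07 counts per library and no count in 13 of 28 libraries.

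RNA of the ventricular myocardium of 28 adult male C57BL/6 mice was sequenced, with 1 library per mouse. All mice received a diet with 1% hydroxyproline, a precursor of oxalate, and 0.5% calcium. Chronic kidney disease (CKD) was induced at 6 weeks of age by 5/6 nephrectomy, which removes most of the renal tissue, and control mice had a sham operation. On day 7 each mouse was gavaged a single time with Oxalobacter formigenes (Oxf), an oxalate-degrading gut bacterium, or with its culture medium (vehicle). The groups were sham-vehicle (n = 10), CKD-vehicle (n = 6), sham-Oxf (n = 5) and CKD-Oxf (n = 7), and replicate numbers follow the order of the sample records. The design describes 10 mice in each group, and the others were not analysed here.

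Ribosomal proteins surround the ribosomal RNA of both subunits, the small one that reads the mRNA and the large one that joins amino acids. Their mRNAs are abundant in every cell type, and many begin with a C followed by a run of pyrimidines at the 5′ end, a feature through which mTOR signalling is known to control their translation. A few members have paralogs. Rpl3l replaces Rpl3 in ribosomes of heart and skeletal muscle, and Rps27l is a p53-responsive relative of Rps27.

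Libraries held 19.8 to 65.4 M counts (M for mega), with a median of 38.1 M. Sham-Oxf replicate 1 had the lowest depth and 15879 detected genes, and 987 genes with a mean over 100 counts in the other libraries had no count there. Rpl13a was among the genes at 0 in that library. The share of 7SL, an RNA of the signal recognition particle, was 1.83% to 20.98% of a library's counts, summed over its copies Rn7s1 and Rn7s2. The counts of these copies differed by at most 0.0113% of their mean. If reads that match both copies were counted at each, the summed share holds them repeatedly. How reads that match several places were counted was not tested. All 8 cardiomyocyte markers (Myh6, Myl2 and others) were detected in every group, with summed levels of 17018 to 44582 CPM (counts per mega-count of TMM-scaled library size), and the 5 atrial markers (Myl7, Sln and others) summed to 62.8 to 2775 CPM.

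Of the 80 members, 59 had an entry among the RefSeq promoters of GRCm38.p6, which cover 250 bases before to 50 bases after each start. A pyrimidine tract was counted on the sense strand where a C within 5 bases of the annotated start was followed by at least 4 bases that were C or T. It was found in 27 of the 59 members (45.8%) and in 18.5% of all 27025 promoters. The 30 bases around the start (15 before and 15 from the start on) are shown for some members. They are those that fell after Oxf, described further on, where an entry exists, and 3 with no tract by this count. The second part of each sequence is the beginning of the first exon in RefSeq. Capitals mark the tract. The count depends on the annotated start. In Rpl4 a run of pyrimidines begins further before the start than the 5 bases searched, and it was not counted. Whether mRNAs counted without a tract begin with one was not tested.
Rpl35 (chr2:39005117-39005146, minus strand): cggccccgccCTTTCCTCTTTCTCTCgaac
Rpl39 (chrX:37085208-37085237, minus strand): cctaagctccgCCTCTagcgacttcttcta
Rps15a (chr7:118116133-118116162, minus strand): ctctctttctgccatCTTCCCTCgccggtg
Rps27 (chr3:90213634-90213663, minus strand): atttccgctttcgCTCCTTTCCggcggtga
Rps27l (chr9:66946071-66946100, plus strand): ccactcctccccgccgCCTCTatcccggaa
Rplp0 (chr5:115559452-115559481, plus strand): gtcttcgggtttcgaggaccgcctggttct
Rpl4 (chr9:64173372-64173401, plus strand): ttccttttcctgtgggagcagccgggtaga
Rpl3l (chr17:24727811-24727840, plus strand): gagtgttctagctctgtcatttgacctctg

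The tract of Rpl35 was the longest of those shown, with 16 bases, and those of Rpl39 and Rps27l had 5 bases each. Other motifs were searched on both strands of the 300-base windows. The ETS core CCGGAAG was present in 24 of 59 members (40.7%) and 9.14% of all promoters. The YY1 core GCCATNTT was present in 11 members (18.6%) and 6.20% of all promoters. The muscle M-CAT motif CATTCC was present in 6 members (10.2%) and 14.7% of all promoters. Matches of different motifs may overlap. The Rpl3l window held none of the 3 motifs. A match describes the letters of the window and is not a measured binding site.

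Levels of different genes were compared as mean CPM per kilobase of annotated exon. Among large subunit genes, Rplp1 (a stalk protein) had 118 CPM per kilobase, Rpl36 had 90.1 and Rplp0 (the base of the stalk) had 82.7. The lowest tested were Rpl13a with 1.91, Rpl24 with 5.08 and Rpl22 with 5.63 CPM per kilobase. Among small subunit genes, Rps15 had 94.3, Rps2 had 72.8 and Rps6, the substrate of S6 kinase, had 64.6 CPM per kilobase. Rps15a with 3.25, Rps27l with 4.72 and Rps19 with 7.63 CPM per kilobase were the lowest. Annotated exon length differs widely between members, from 383 bases in Rpl36 to 6270 bases in Rps15a, and this enters each value.

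Processed pseudogenes are a known limit for this family. The table lists 237 rows named as Rpl or Rps pseudogenes, which held 35.6 counts per 100 counts of the 80 members, and 59 members had at least 1 such row. Rpl3-ps1 and Rpl3-ps2 together held 86.5 counts per 100 counts of Rpl3, while Rpl3l had no pseudogene row. How far reads were shared between members and pseudogenes cannot be read from these counts, so single-gene levels are uncertain. Rps4l is typed in the annotation as a transcribed processed pseudogene, and its mean level was 8.59 CPM. Of the paralogs outside the name rule, Rpl7l1 had a mean of 11.3 CPM, Rpl22l1 had 3.90 CPM and Rpl36al had 0.495 CPM. No gene row carried the name Rpl10l, which would fit the name rule.

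Together the members held 0.222% to 0.572% of all counts in a library. Summed over the large subunit genes, sham-vehicle mice had 2308 ± 746 CPM (SD, n = 10), CKD-vehicle mice 2757 ± 763 CPM (n = 6), sham-Oxf mice 1949 ± 469 CPM (n = 5) and CKD-Oxf mice 2260 ± 875 CPM (n = 7). Summed over the small subunit genes, sham-vehicle mice had 1625 ± 583 CPM, CKD-vehicle mice 1983 ± 599 CPM, sham-Oxf mice 1288 ± 295 CPM and CKD-Oxf mice 1515 ± 639 CPM. The order of the groups was the same for both subunits, and every pair of neighbouring groups overlapped. In bulk tissue, fewer cells of a type and less RNA per cell cannot be told apart.

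**Figure D1:**
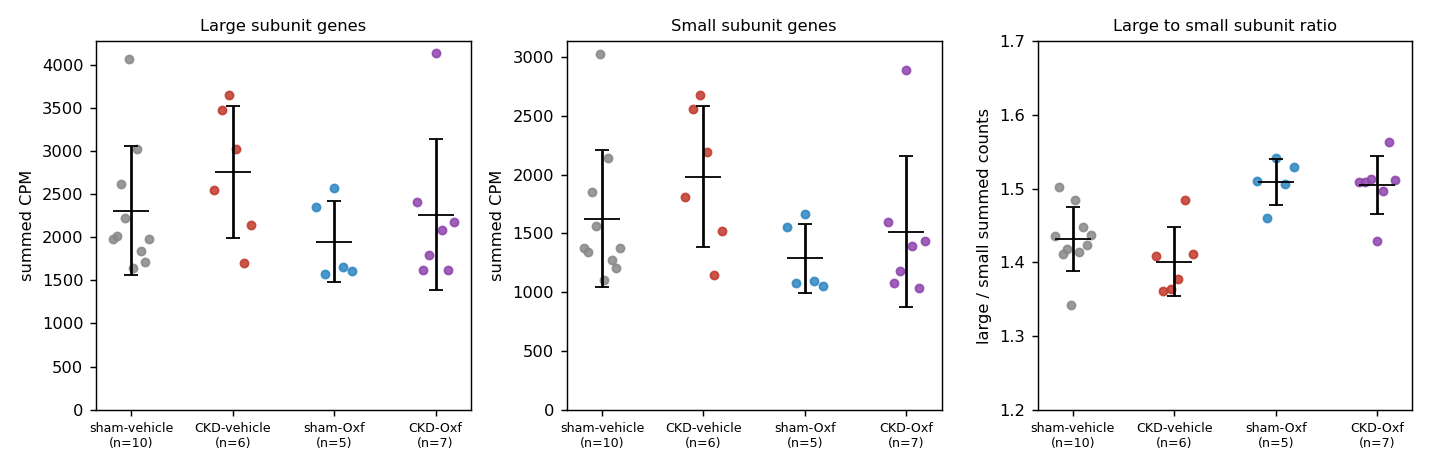
Summed level of the 48 large and 32 small subunit genes in CPM, and the ratio of their summed counts, by group; points are mice, the horizontal line is the mean and the bar is 1 SD. The ratio axis runs from 1.2 to 1.7, and the sham-Oxf mice lie between 1.46 and 1.54 against 1.34 to 1.502 in sham-vehicle.

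The ratio of large to small subunit counts needs no scaling to library size. The vehicle groups had means of 1.43 ± 0.0435 (sham, 1.34 to 1.502) and 1.40 ± 0.0463 (CKD, 1.36 to 1.48). The Oxf groups had means of 1.51 ± 0.0312 (sham, 1.46 to 1.54) and 1.505 ± 0.0393 (CKD, 1.43 to 1.56). Both Oxf groups had higher means than both vehicle groups, and their ranges overlapped with them. Without Rpl3l and Rps4l the means were 1.41, 1.38, 1.48 and 1.48 in the same order of groups. No test was made of this ratio, since it is a score over the members.

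The largest sums, 7086 CPM in sham-vehicle replicate 5 and 7020 CPM in CKD-Oxf replicate 4, came with 7SL shares of 19.9% and 20.6%. CKD-vehicle replicate 3 had 6329 CPM at 20.98%, and CKD-vehicle replicate 5 had 2854 CPM at 2.26%. Other libraries did not follow this order: sham-vehicle replicate 9 had 2920 CPM at 12.5%, CKD-Oxf replicate 2 had 2694 CPM at 10.6%, and sham-Oxf replicate 3 had 4229 CPM at 2.18%. The mean 7SL share was 9.78 ± 5.24% for sham-vehicle, 13.6 ± 6.80% for CKD-vehicle, 4.14 ± 3.52% for sham-Oxf and 8.81 ± 6.26% for CKD-Oxf mice, which is the order of the subunit sums. Within groups, 77 of the 79 tested members had a positive slope on the 7SL share: the median slope was 0.26 log2 CPM per doubling of the share, and -0.10 over all genes tested.

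**Figure D2:**
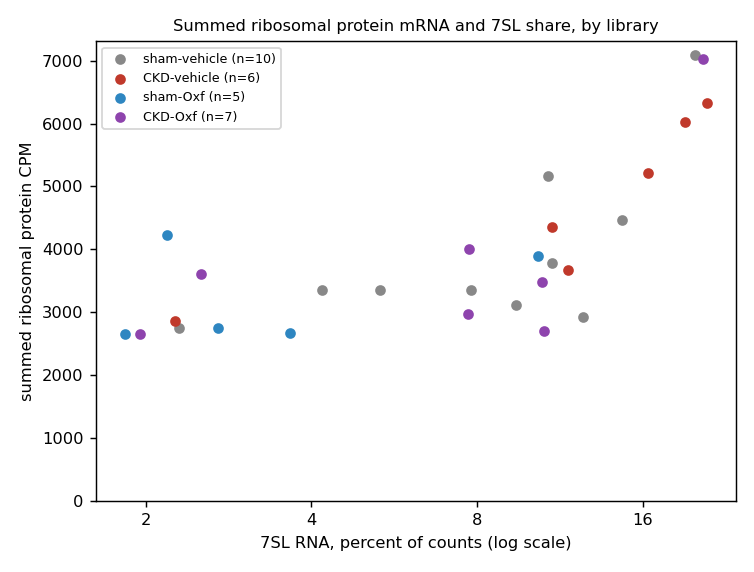
Summed level of the 80 ribosomal protein genes in CPM against the 7SL share of the counts in percent (log scale), each point being 1 mouse coloured by group. The 4 libraries with the highest sums, 6029 to 7086 CPM, lie at the right, at shares of 19.1% to 20.98%.

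Members varied together. Across the 28 libraries, with group means removed, the median Pearson correlation of log2 CPM over all pairs of the 79 members was 0.865; the points share library, depth and scaling. Rpl13a (mean correlation with the other members 0.0992), Rps4l (0.225), Rpl3l (0.363) and Rps29 (0.421) followed the rest least. Rpl13a (0 CPM), Rps4l (3.41 CPM) and Rps29 (16.4 CPM) each had their lowest level in sham-Oxf replicate 1, the library with few detected genes. How far their low correlations rest on that library was not tested.

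The effect of kidney disease was first compared without bacteria. CKD-vehicle against sham-vehicle called 0 of 79 members in the edgeR quasi-likelihood test at an adjusted p under 0.05, where 0.00824% of all genes tested were called; 1 member had an unadjusted p under 0.05 (4.46% of all genes). DESeq2 and limma voom also called 0 members, where they called 0.119% and 0.383% of all genes. The median log2 fold change was 0.23 for large and 0.25 for small subunit genes, against -0.03 over all genes tested, and 78 of 79 members were above 0. Single libraries moved these medians: they were 0.11 and 0.12 without CKD-vehicle replicate 3, 0.14 and 0.14 without CKD-vehicle replicate 2, and 0.35 and 0.37 without CKD-vehicle replicate 5. The small subunit median was 0.39 without sham-vehicle replicate 5. Rps27a, which encodes ubiquitin fused to a small subunit protein, had the smallest p. It ranged from 23.6 to 99.6 CPM with a median of 43.5 CPM in sham-vehicle and from 30.8 to 118 CPM with a median of 71.6 CPM in CKD-vehicle. Its log2 fold change was 0.59 ± 0.277 (SE; edgeR adjusted p = 0.955, unadjusted 0.0428). Rps10, at 37.9 ± 11.9 and 50.7 ± 15.9 CPM in the same groups, and Rpsa, at 121.2 ± 44.2 and 160.8 ± 48.7 CPM, followed. The medians were small when the clock score described below entered the fit as a covariate, at 0.01 for both subunits.

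In mice given Oxf, CKD-Oxf against sham-Oxf called 0 of 79 members in edgeR, DESeq2 and limma voom, with 0%, 0.412% and 0% of all genes called. At an unadjusted p under 0.05, edgeR gave 1 member, and 8.23% of all genes. Median log2 fold changes were 0.24 for large and 0.19 for small subunit genes, against 0.05 over all genes, and 76 members were above 0. Without CKD-Oxf replicate 4 the medians were 0.01 and -0.04, and with the 7SL share as a covariate both were below 0, at -0.07 and -0.12. The small subunit median was 0.31 without sham-Oxf replicate 3. The smallest p-values belonged to Rpl10a, a protein of the L1 stalk (0.44 ± 0.213, edgeR adjusted p = 0.597), Rps27a (0.63 ± 0.325) and Rpl12, a protein at the base of the P stalk (0.54 ± 0.300). Rpl10a had 16.4 ± 5.49 CPM in sham-Oxf and 22.3 ± 4.98 CPM in CKD-Oxf. It was lowest, at 7.78 CPM, in sham-Oxf replicate 1, and without that library its log2 fold change was 0.26.

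Averaged over the gavage, surgery called 0 of 79 members in edgeR, DESeq2 and limma voom, with 0%, 0.424% and 0.519% of all genes called. All 79 members had a log2 fold change above 0, with a median of 0.22 against 0.00 over all genes. At an unadjusted p under 0.05, edgeR gave 5 members (6.33%) and 10.6% of all genes. The first was Rps27a with a log2 fold change of 0.61 ± 0.214 (edgeR adjusted p = 0.329), then Rpl10a with 0.33 ± 0.140 and Rpl24 with 0.41 ± 0.181. With the 7SL share as a covariate the medians were 0.02 for large and 0.01 for small subunit genes.

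The gavage effect in mice with kidney disease, CKD-Oxf against CKD-vehicle, had 0 of 79 members past the edgeR threshold, with 0.0330% of all genes called. At an unadjusted p under 0.05 there were 20 members (25.3%), all lower, against 13.1% of all genes in either direction and 6.20% lower. DESeq2 called 1 member, Rpl39, and 0.832% of all genes, and limma voom called 47, where it called 3639 of all 24273 genes. Without CKD-Oxf replicate 4, edgeR called 18 members and 3.83% of all genes. The median log2 fold change was -0.31 for large and -0.46 for small subunit genes, against 0.03 over all genes, and 74 members were below 0. Without CKD-Oxf replicate 4 the medians were -0.51 and -0.71, and with the clock score described below as a covariate they were 0.02 and -0.01. With the 7SL share as a covariate they were -0.15 and -0.22. The smallest p-values were those of Rpl39 (-0.99 ± 0.276, edgeR adjusted p = 0.196), Rps27a (-0.94 ± 0.303, 0.23) and Rps27l (-0.96 ± 0.313, 0.23).

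In sham-operated mice, sham-Oxf against sham-vehicle called 0 of 79 members in edgeR, DESeq2 and limma voom, with 0%, 0.548% and 0.14% of all genes called. At an unadjusted p under 0.05, edgeR gave 18 members (22.8%), all lower, against 12.6% of all genes and 5.98% lower. Median log2 fold changes were -0.31 for large and -0.37 for small subunit genes, against -0.04 over all genes, and 71 members were below 0. Rpl39, Rps27a and Rps27l again had the smallest p-values, with log2 fold changes of -0.94 ± 0.284, -0.98 ± 0.313 and -1.01 ± 0.326 (edgeR adjusted p = 0.201, 0.217 and 0.221). With the 7SL share as a covariate the medians changed sign, to 0.05 for large and 0.08 for small subunit genes. With the clock score as a covariate they were -0.04 and -0.07. They were -0.20 and -0.23 without sham-vehicle replicate 5, and the large subunit median was -0.46 without sham-Oxf replicate 3.

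**Figure D3:**
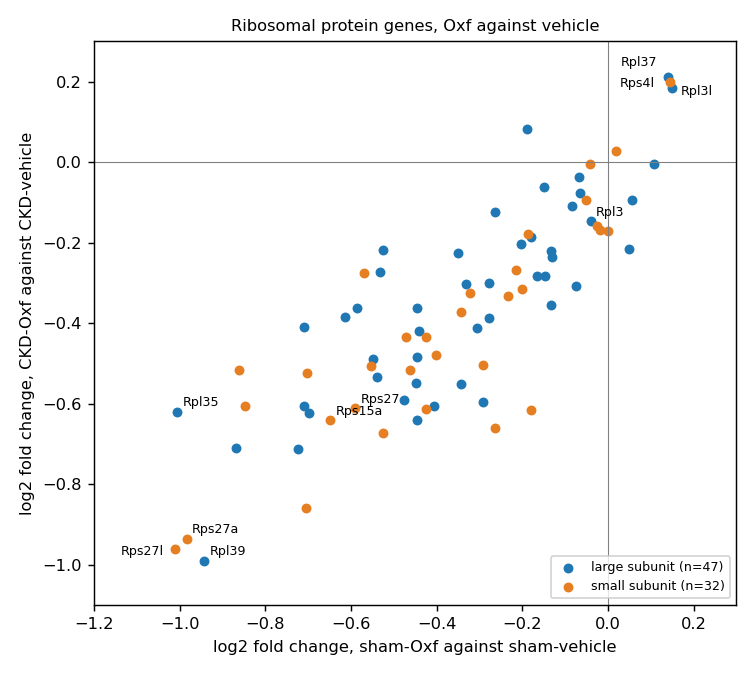
Log2 fold change of each tested member after Oxf in sham-operated mice (horizontal) and in mice with CKD (vertical); the comparisons share no libraries, and named points are the members called in the averaged contrast, Rpl3, Rpl3l, Rpl37 and Rps4l. Most points lie below 0 on both axes, with Rpl39, Rps27a and Rps27l near -1.

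The comparisons in sham-operated and CKD mice share no libraries, and the order of the members was alike in them. Across the 79 members, the Spearman correlation of the log2 fold changes was 0.813, against 0.414 across all genes tested; members share scaling and depth and are not replicates. Of the 10 lowest members in each comparison, 5 were shared. The interaction of surgery and gavage called 0 of 79 members in edgeR, DESeq2 and limma voom, with 0% of all genes called in each, and 0 members had an unadjusted p under 0.05 (3.55% of all genes). Among the smallest interaction p-values were those of Rps10 (-0.44 ± 0.328, edgeR adjusted p = 1) and Rpl29 (-0.23 ± 0.238). For Rps10 the group means were 33.5 ± 10.9 CPM in sham-Oxf and 33.1 ± 10.8 CPM in CKD-Oxf, against the vehicle values given above.

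Averaged over surgery, 6 of the 79 members (7.59%) fell after Oxf at an edgeR adjusted p under 0.05, where 2.81% of all genes were called in either direction and 1.54% lower. They were the large subunit genes Rpl39 and Rpl35 and the small subunit genes Rps27a, Rps27l, Rps15a and Rps27. No member rose. At an unadjusted p under 0.05 there were 39 members (49.4%), against 23.0% of all genes. The median log2 fold change was -0.33 for large and -0.43 for small subunit genes, against 0.00 over all genes, and 74 of 79 members were below 0.

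Rpl39, one of the smallest ribosomal proteins, lines the exit tunnel. Its level ranged from 9.21 to 31.6 CPM with a median of 18.4 CPM in sham-vehicle and from 12.3 to 38.2 CPM with a median of 23.2 CPM in CKD-vehicle. The 5 sham-Oxf mice had 7.02, 12.1, 12.6, 8.13 and 7.44 CPM, and CKD-Oxf ranged from 6.67 to 20.8 CPM with a median of 9.98 CPM. All 5 sham-Oxf mice and all 7 CKD-Oxf mice were below the median of their vehicle group, though the ranges overlapped. Its log2 fold change was -0.97 ± 0.198 (edgeR adjusted p = 0.0155).

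Rps27a, which lies at chr11:29545846-29548109 on the minus strand (GRCm38), had no promoter entry. It had 33.3, 22.2, 27.6, 22.3 and 18.1 CPM in the sham-Oxf mice and ranged from 23.2 to 83.5 CPM with a median of 34.6 CPM in CKD-Oxf. All 5 sham-Oxf mice and 6 of 7 CKD-Oxf mice were below the median of their vehicle group, and CKD-Oxf replicate 4 was the exception. The log2 fold change was -0.96 ± 0.218 (edgeR adjusted p = 0.0255).

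Rps27l ranged from 2.12 to 8.50 CPM (median 3.86) in sham-vehicle and from 2.87 to 8.07 CPM (median 5.54) in CKD-vehicle. It was at 2.28, 1.82, 2.33, 1.97 and 2.55 CPM in the sham-Oxf mice and ranged from 1.27 to 6.23 CPM (median 2.56) in CKD-Oxf. Its log2 fold change of -0.99 ± 0.226 (edgeR adjusted p = 0.0274) exceeded that of its relative Rps27, a zinc finger protein of the small subunit, which was -0.60 ± 0.169 (adjusted p = 0.0490). Rps27 had 17.2, 16.2, 22.2, 13.8 and 12.8 CPM in the sham-Oxf mice, against 17.6 to 49.8 CPM in sham-vehicle, and ranged from 12.7 to 29.2 CPM in CKD-Oxf against 15.2 to 44.6 CPM in CKD-vehicle. The difference between these paralogs was not tested.

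Rps15a, a protein of the body of the small subunit, ranged from 14.0 to 37.3 CPM (median 20.5) in sham-vehicle and from 14.2 to 32.7 CPM (median 26.7) in CKD-vehicle. The sham-Oxf mice had 16.5, 14.3, 14.4, 13.6 and 13.2 CPM, and CKD-Oxf ranged from 11.6 to 28.8 CPM (median 14.5). The log2 fold change was -0.65 ± 0.150 (edgeR adjusted p = 0.0292). Rpl35, which lies near the tunnel exit, ranged from 17.6 to 98.9 CPM (median 36.2) in sham-vehicle and from 26.7 to 68.7 CPM (median 54.5) in CKD-vehicle. It was at 21.8, 19.3, 26.5, 21.8 and 19.0 CPM in the sham-Oxf mice and ranged from 16.9 to 76.3 CPM (median 24.6) in CKD-Oxf. Its log2 fold change was -0.81 ± 0.230 (edgeR adjusted p = 0.0493).

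**Figure D4:**
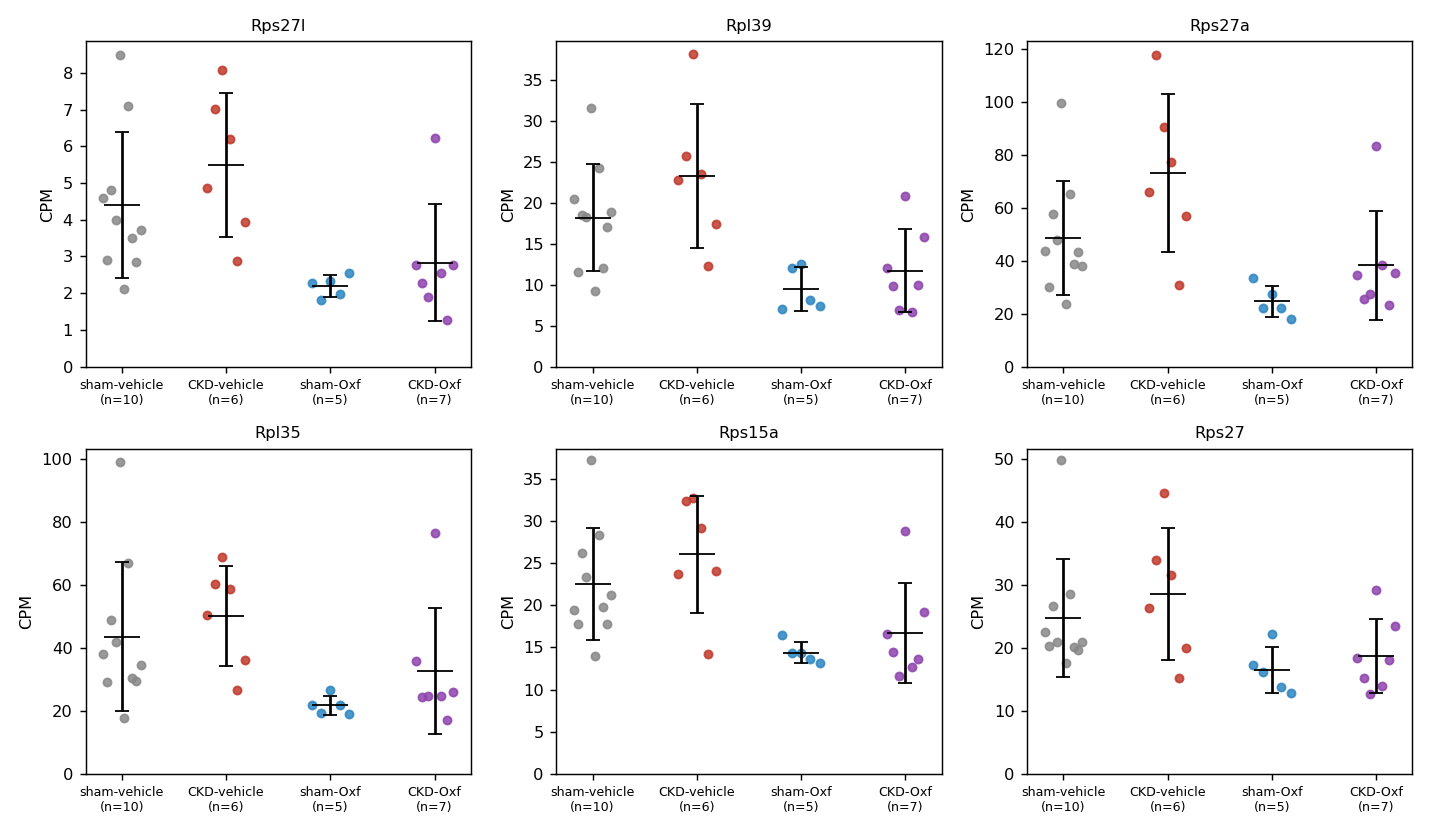
CPM of the 6 members called for Oxf averaged over surgery, by group; points are mice, the horizontal line is the mean and the bar is 1 SD. In each panel 1 CKD-Oxf mouse, replicate 4, lies far above the other mice of its group or at its top, at 83.5 CPM for Rps27a and 76.3 CPM for Rpl35.

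For none of the 79 members were the ranges of the groups separate in any of the 4 pairwise comparisons. The same count was not made over all genes, so it is not known whether the members differ from other genes in this. The number called moved with single libraries. Leaving out CKD-Oxf replicate 4, the library with the highest sum in its group, gave 42 members called, where 13.9% of all genes were called. It was 25 without CKD-vehicle replicate 5 (7.83% of all genes), 12 without sham-vehicle replicate 6 (4.82%), 11 without sham-vehicle replicate 2 (4.09%) and 10 without sham-vehicle replicate 9 (3.54%). It was 2 without CKD-vehicle replicate 3 (0.457%) or sham-Oxf replicate 5 (0.529%), and 1 without CKD-Oxf replicate 3 (0.514%) or CKD-vehicle replicate 2 (0.449%). In each of these fits the share of all genes called moved in the same direction as the number of members. Without sham-Oxf replicate 1, the library with few detected genes, 6 members and 3.50% of all genes were called. Rpl39 passed in all 28 such fits, Rps27a and Rps27l in 25, Rps15a in 24, Rps27 in 9 and Rpl35 in 8. DESeq2 called 21 members (8.79% of all genes) and limma voom 50 (22.0% of all genes), all lower.

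Other signals moved with the gavage. Of the clock genes that peak in the same phase as Dbp, 7 of 10 rose, among them Dbp (1.51 ± 0.238) and Per3 (1.43 ± 0.264), and all 4 of the opposite phase fell, Arntl among them (-2.11 ± 0.297). The clock score, the mean log2 CPM of the first list minus that of the second, was 2.10 ± 1.16 for sham-vehicle, 0.52 ± 0.963 for CKD-vehicle, 3.93 ± 0.619 for sham-Oxf and 3.29 ± 0.639 for CKD-Oxf mice. It ranged from -0.47 to 1.76 in CKD-vehicle and from 1.93 to 3.98 in CKD-Oxf, without overlap. In sham-vehicle the range was 0.44 to 4.05, and in sham-Oxf 2.87 to 4.38. The clock score and the gavage therefore cannot be told apart in mice with CKD, and only in part in sham mice. Sham-vehicle replicates 1 to 3 had scores of 0.44, 0.93 and 1.55, and replicates 8 to 10 had 3.14, 4.05 and 3.46. The sample numbers in the titles run in blocks by group. All vehicle mice (901 to 920) come before all Oxf mice (921 to 940), so the gavage and this order cannot be told apart. With the clock score as a covariate, edgeR called 0 members and 0% of all genes, and the medians were -0.0048 for large and -0.08 for small subunit genes. With the log2 7SL share as a covariate it called 0 members, where 0.544% of all genes were called, and the medians were -0.03 and -0.12. Rpl39 then had a log2 fold change of -0.69 and Rps27a of -0.45. The log2 fold changes after Oxf and the within-group 7SL slopes had a Spearman correlation of -0.616 across the 79 members and -0.286 across all genes.

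Cell type markers were measured beside these values. The summed cardiomyocyte markers ranged from 17018 to 32439 CPM (sham-vehicle), 29820 to 44582 CPM (CKD-vehicle), 19035 to 27603 CPM (sham-Oxf) and 23125 to 39783 CPM (CKD-Oxf), with none of the 8 at 0 in a group. Of these markers, 1 of 8 fell after Oxf, Tnni3 (-0.72 ± 0.194, edgeR adjusted p = 0.0447), and 7 were below 0. None of the 5 markers each of atrial, endothelial, fibroblast, mural, macrophage, lymphoid, red cell and adipocyte lists, or of the 4 skeletal muscle markers tested, passed in edgeR. At an unadjusted p under 0.05, edgeR gave 4 of 8 cardiomyocyte, 4 of 5 mural, 4 of 4 skeletal muscle and 3 of 5 liver markers, 2 of 5 each for endothelial cells and fibroblasts, 1 of 5 each for atrial and red cells, and 0 of 5 each for macrophages, lymphoid cells and adipocytes, where 23.0% of all genes had such a p. The summed mural markers ranged from 514 to 1067 CPM (sham-vehicle), 548 to 970.4 CPM (CKD-vehicle), 425 to 728 CPM (sham-Oxf) and 295 to 752 CPM (CKD-Oxf). For the summed skeletal muscle markers the medians were 3.29, 2.34, 2.63 and 3.20 CPM in the same order of groups. Their highest values were 385, 550, 21.2 and 3.38 CPM, so the vehicle groups held libraries far above their median. Of the 5 liver markers, Alb rose (2.67 ± 0.693, edgeR adjusted p = 0.0400). The part of these markers in the result was not tested.

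Sequence features that did not enter the choice of the members were set beside the Oxf effect. Members counted with a tract at the annotated start had a median log2 fold change after Oxf of -0.45 (27 members). Those counted without had -0.40 (31 members). All 5 called members with a promoter entry had a tract, as the printed starts show, beside 45.8% of all 59 members with an entry. Most members with a tract were not called. Transcript GC content had a Spearman correlation with the Oxf effect of 0.19 across members and 0.31 across all genes, and transcript length one of 0.117 and 0.173. The 29 members that hold 1 or more of 56 intronic or exonic snoRNAs had a median of -0.29, and the other 50 had -0.43. The members above 0 were Rpl37 (0.18 ± 0.146), Rps4l (0.17 ± 0.133), Rpl3l (0.17 ± 0.201), Rpl4 (0.05) and Rps4x (0.02), none of them past the threshold.

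The stalk proteins recruit translation factors, and differences among their changes were not tested. Rplp0 had a log2 fold change after Oxf of -0.10 ± 0.165, Rplp2 of -0.24 ± 0.155 and Rplp1 of -0.44 ± 0.175 (edgeR adjusted p = 0.130). Rplp1 was at 58.3 ± 18.3 CPM in sham-vehicle and 77.6 ± 29.8 CPM in CKD-vehicle mice, and at 47.7 ± 13.7 CPM and 51.3 ± 17.3 CPM in the matching Oxf groups. None of the 3 passed in edgeR in any contrast. Limma voom called Rplp1 and Rplp2 in CKD-Oxf against CKD-vehicle, and Rplp1 for Oxf averaged over surgery. For that averaged effect, edgeR called Rplp1 without CKD-Oxf replicate 4 and without CKD-vehicle replicate 5.

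The muscle form Rpl3l did not pass the edgeR test in any contrast. Rpl3l lies at chr17:24727820-24736143 on the plus strand and Rpl3 at chr15:80077791-80091868 on the minus strand (GRCm38). Per kilobase of annotated exon, Rpl3 had 31.7 and Rpl3l had 27.7 CPM over all libraries. The annotated exons cover 3175 bases in Rpl3 and 1643 in Rpl3l, while their reference transcripts have 1351 and 1375 bases. The values per kilobase therefore do not show that these genes had similar levels. Without division by length, the means were 101 CPM for Rpl3 and 45.5 CPM for Rpl3l. Rpl3l ranged from 13.0 to 59.9 CPM (median 45.5) in sham-vehicle and from 31.5 to 52.9 CPM (median 49.0) in CKD-vehicle. The 5 sham-Oxf mice had 56.3, 23.0, 39.6, 60.4 and 49.7 CPM, and CKD-Oxf ranged from 26.1 to 73.0 CPM (median 48.4). The order of the group means was sham-vehicle (41.3 ± 15.3 CPM), CKD-vehicle (45.2 ± 9.08), sham-Oxf (45.8 ± 14.9) and CKD-Oxf (51.4 ± 20.5), and no neighbours in this order differed beyond their spread. Its log2 fold change was 0.13 ± 0.265 in CKD-vehicle against sham-vehicle, 0.18 ± 0.287 in CKD-Oxf against CKD-vehicle, 0.15 ± 0.281 in sham-Oxf against sham-vehicle and 0.17 ± 0.303 in CKD-Oxf against sham-Oxf. The smallest edgeR adjusted p among the 7 contrasts was 0.674. For Rpl3 the same log2 fold changes were 0.26 ± 0.188, -0.15 ± 0.203, -0.04 ± 0.201 and 0.15 ± 0.215.

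**Figure D5:**
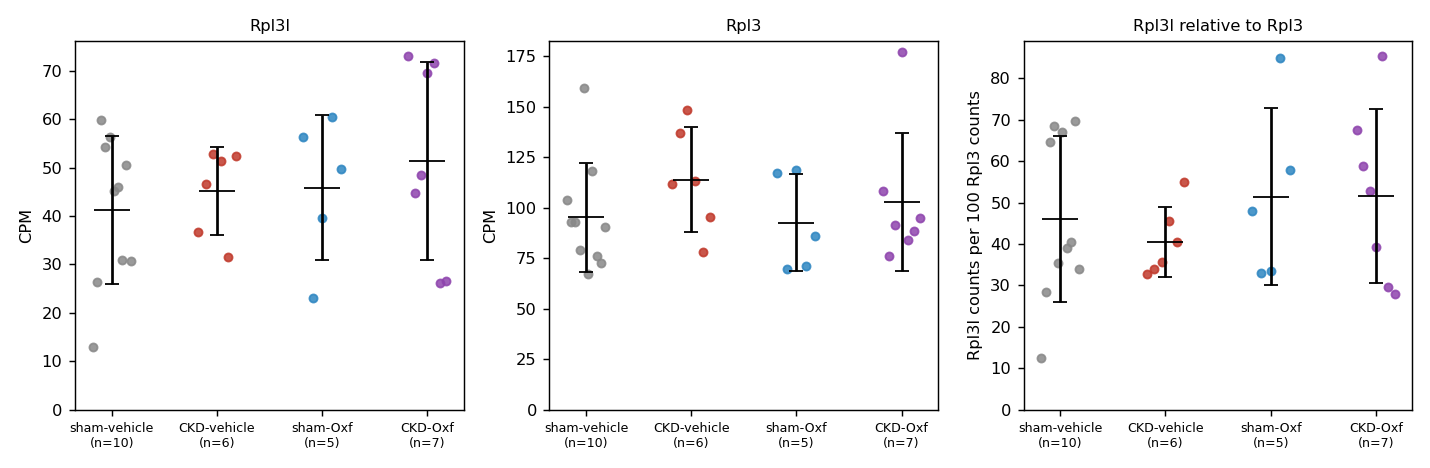
Rpl3l and Rpl3 in CPM, and Rpl3l counts per 100 Rpl3 counts, by group; points are mice, the horizontal line is the mean and the bar is 1 SD. All 4 groups overlap in each panel, and sham-vehicle replicate 1 is lowest for Rpl3l at 13.0 CPM.

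Within a library, Rpl3l had 46.0 ± 20.0 counts (sham-vehicle), 40.6 ± 8.45 (CKD-vehicle), 51.4 ± 21.4 (sham-Oxf) and 51.6 ± 20.9 (CKD-Oxf) per 100 counts of Rpl3. The difference in mean log2 ratio was -0.05 for CKD-vehicle against sham-vehicle (exact two-sided permutation test, p = 0.901) and -0.01 for CKD-Oxf against sham-Oxf (exact permutation p = 0.979). It was 0.26 for CKD-Oxf against CKD-vehicle (exact permutation p = 0.347) and 0.23 for sham-Oxf against sham-vehicle (exact permutation p = 0.586). With single libraries left out, the first ranged from 0.13 (without CKD-Oxf replicate 5) to 0.39 (without CKD-Oxf replicate 7) and the second from 0.023 (without sham-Oxf replicate 4) to 0.36 (without sham-Oxf replicate 2). The adjusted value over the 4 comparisons was 0.979 for each, and the SD of the log2 ratio within groups was 0.285 to 0.773. Differences of the size seen were within the spread between mice.

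Within groups, Rpl3l had higher correlations with the cardiomyocyte markers Myl2 and Myh6 than with Rpl3 or, in the median, with the other members. Among 13905 genes whose mean log2 CPM reached 1, those most correlated with it over the 28 libraries, with group means removed, were Fhl2 (Pearson 0.935), a LIM domain protein of striated muscle, Abcc9 (0.918), a subunit of the potassium channel of cardiac membranes, Lrtm1 (0.914), Usp13 (0.902) and Hk2 (0.901), a muscle hexokinase. The correlation was 0.896 with Myl2, 0.687 with Myh6 and 0.23 with Rpl3, and the median over the other 78 members was 0.386. The genes from Fhl2 to Hk2 were picked as the highest of the 13905. Their values therefore cannot be compared with a median over members, and the highest value within the family is not given. All these correlations are descriptions over points that share library and depth, and those with the other cardiomyocyte markers are not given. They do not describe differences between groups. For Oxf averaged over surgery, the log2 fold change was 0.17 for Rpl3l, -0.53 for Myl2 and -0.17 for Myh6. For surgery averaged over gavage, it was 0.15, 0.37 and 0.34 in the same order.

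Genes of related functions were counted for Oxf averaged over surgery. Over all genes, 2.81% passed in edgeR for this contrast (1.54% lower), and 23.0% had an unadjusted p under 0.05. Of the ribosomal proteins outside the name rule (Fau, Rps3a1, Gnb2l1 and others), 0 of 7 passed in edgeR and 2 had an unadjusted p under 0.05, with a median of -0.27. Of 19 translation factors, many of which have the same kind of start, 0 passed in edgeR and 5 had an unadjusted p under 0.05, with a median of -0.17. Eef1a1 was at -0.23 ± 0.165, Eef2 at 0.17 ± 0.119, and the muscle elongation factor Eef1a2 at -0.14 ± 0.184. Of 36 ribosome biogenesis genes, Nop10, a component of box H/ACA particles, fell (-1.09 ± 0.292, edgeR adjusted p = 0.0444), and the median was -0.01. In edgeR, 10 of the 36 had an unadjusted p under 0.05. Of 17 mTOR signalling genes, Tsc1, an inhibitor of the pathway, rose (0.27 ± 0.0709, edgeR adjusted p = 0.0426), and the median was 0.13. Here 7 of the 17 had an unadjusted p under 0.05.

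The mitochondrial ribosomal proteins, which build a separate ribosome, had a median of the same sign as the cytosolic ones. Of 76 tested, 4 fell after Oxf in edgeR: Mrpl16 (-0.76 ± 0.192, adjusted p = 0.0360), Mrpl44 (-0.73 ± 0.198), Mrps36 (-0.72 ± 0.169) and Mrpl33 (-0.35 ± 0.0953). Of all genes, 1.54% fell. At an unadjusted p under 0.05 there were 39 of the 76, against 23.0% of all genes. The median of the 76 was -0.30 and 73 were below 0, beside medians of -0.33 and -0.43 for the large and small cytosolic subunits. In the surgery contrasts no gene of these 5 lists passed in edgeR. For CKD-vehicle against sham-vehicle, 6 of the 76 mitochondrial genes had an unadjusted p under 0.05, against 4.46% of all genes. The median of the 76 was 0.24.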

How the data were processed

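The authors deposited 1 table of whole-number read counts per gene for all 28 libraries, and 0 columns were left unmapped. The submitters' processing notes name FastQC 0.11.7, MultiQC 1.9, STAR 2.6.1d, featureCounts 1.6.3 (Subread) and the build mm10. Their settings for strand and multiply mapped reads are not given in the sources used here. Identifiers were matched to GENCODE M21 (GRCm38), which found 45465 of 45513, for positions, gene types, exon lengths and snoRNAs.

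With TMM scaling, edgeR 4.0.16 in R 4.3.3 fitted the 4 groups of all 28 libraries together (filterByExpr by group with a minimum count of 10, robust quasi-likelihood test) and gave 7 contrasts. Benjamini-Hochberg adjustment ran over the 24273 genes tested, with a threshold of 0.05. CPM are counts per mega-count of TMM-scaled library size, and errors of log2 fold changes are their size divided by the square root of F. Correlations and slopes used log2 CPM with a prior count of 2. The ratio of Rpl3l to Rpl3 used log2 counts with a pseudocount of 0.5. The fitting script was tested on simulated data. Beyond group and sample number, the labels do not say more of the mice than 1 sample each, and p-values measure the spread between them.

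Rpl3l and Rpl3 were named in every contrast, with all members past the threshold or, where none passed, the 3 of smallest p, the stalk genes, the paralogs and the highest and lowest members of each subunit per kilobase. A gene that this rule names in the interaction is not reported here. Members named beside these were chosen after their values were seen. The members, gene lists and rules were chosen with earlier results of these data known. Alternatives were DESeq2 1.42.0, limma 3.58.1 (weighted voom), upper quartile scaling, scaling by DESeq2 size factors, a filter of at least 10 counts in every library, none, the 7SL share or clock score as covariate, the compared groups only, each library left out, and for the ratio a pseudocount of 5. Chosen after seeing the data were an offset for the GC trend and the ratio with Rpl3 pseudogene counts added.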

Additional observations from a re-analysis of the deposited data

Results flagged for a closer look

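Of 48 comparisons of a group (12 measures in 4 groups), 6 had a highest or lowest mouse whose gap to the nearest other mouse took a larger share of the range of the group than Dixon's 95% limit allows. Chance flags about 1 in 20 comparisons. The measures share genes and libraries, so the number flagged cannot be weighed against that rate. CKD-Oxf replicate 4 was highest of its group for the summed ribosomal protein level (gap 0.579 of the range), for Rpl3 (0.583) and for Rps27a (0.606). Its sum was 7020 CPM against 2661 to 4001 CPM in the other 6 mice, and its 7SL share was 20.6%. Sham-vehicle replicate 5 was highest for Rps27 (0.534), at 49.8 CPM. Sham-vehicle replicate 1 was lowest for the ratio of Rpl3l to Rpl3 (0.479), with 12.6 Rpl3l counts per 100 Rpl3 counts. CKD-vehicle replicate 5 was lowest for the 7SL share (0.707), at 2.26%.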

How the results depend on the processing

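For Oxf averaged over surgery, 6 members were called; the number was 21 with DESeq2, 50 with limma voom, 3 with no filter, 12 with at least 10 counts in every library, and 0 with the 7SL share or the clock score as a covariate. It was 9 with either other scaling, 4 with the GC trend as an offset, and 1 to 42 with each library left out. For the filters, scalings and GC offset the share of all genes called is not given here. These numbers therefore cannot be read as particular to the members. For CKD-Oxf against CKD-vehicle the number called was 0, against 1 with DESeq2, 47 with limma voom and 0 to 18 with a library left out. The other 5 contrasts had 0 members called under every alternative run. The median of the small subunit genes for sham-Oxf against sham-vehicle was 0.078 with the 7SL share as a covariate. The log2 fold change of Rpl3l, called in no fit, changed sign with limma voom in CKD-Oxf against CKD-vehicle (-0.027), CKD-Oxf against sham-Oxf (-0.0165) and the interaction (-0.31). It also did so with the 7SL share as a covariate in CKD-Oxf against sham-Oxf (-0.20), the interaction (-0.20) and the averaged surgery effect (-0.10), and in the interaction with upper quartile scaling (-0.00194) and the GC offset (-0.00518). With a library left out, it ranged from -0.0035 to 0.29 in CKD-Oxf against sham-Oxf and from -0.14 to 0.15 in the interaction. The difference in log2 ratio of Rpl3l to Rpl3 then ranged from -0.24 to 0.039 for CKD-vehicle against sham-vehicle and from -0.15 to 0.20 for CKD-Oxf against sham-Oxf. The cause of these changes was not tested. No paired analysis was possible because the labels give no replicate numbers shared between groups. Rpl39l, with a mean of 1.07 counts, was too low to test, and intervals from the fits cover the spread between mice only.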
